A study of Mus musculus with 15 samples.

Results

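The synaptic vesicle release isoforms described here are 9 genes of the presynaptic fusion machinery, chosen by name from the 38561 genes counted in each library: the calcium sensors *Syt1* and *Syt2*, the vesicle SNAREs *Vamp1* and *Vamp2*, the complexins *Cplx1* and *Cplx2*, the plasma membrane SNARE *Snap25*, and the synapsins *Syn1* and *Syn2*. Each name matched 1 Ensembl gene in the GENCODE M21 annotation of GRCm38, and all 9 passed the filter on low counts. The libraries came from Purkinje cells (PCs) cut by laser from the cerebellum of male C56/BL6 mice (the strain as the labels spell it) at P0, P4, P8, P14 and P21, where P0 is the day of birth, with 3 libraries at each time point. The labels name no transgene and no treatment, and the study describes the 3 libraries of a time point as biological replicates. From P4 on, a library held 1000 individually collected somata, whereas at P0 clusters of PCs were collected, so that age and mode of capture cannot be told apart at P0.

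PCs are the output neurons of the cerebellar cortex. They inhibit the deep cerebellar nuclei with GABA at a high sustained rate. Release begins when a vesicle SNARE (synaptobrevin, encoded by *Vamp1* or *Vamp2*) zippers with syntaxin and SNAP-25 of the plasma membrane, while complexins bind the half-assembled complex and a synaptotagmin senses the calcium that enters with the action potential. Synapsins tether vesicles in the reserve pool. Several of these proteins exist as close paralogs whose balance differs between brain regions, and *Syt2*, *Vamp1* and *Cplx1* are best known from fast-firing synapses of the hindbrain and spinal cord.

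Total counts on genes ranged from 3409371 to 7814951 per library. The 6 PC markers, among them *Calb1* and *Pcp2*, rose in sum from 5340.4 ± 737 CPM (SD, n = 3) at P0 to 42941 ± 5287 at P21, and all 6 had counts at every time point. CPM is a count scaled to a common library total, here with TMM factors. Every list of markers of other cells had counts at every time point. Single markers did not (*Mag*, for example, had none at P0 and P4), and the microglial list had none in P0 replicate 1. The 6 markers of Bergmann glia and astrocytes summed to 4438 ± 877 CPM at P0, 8684 ± 800.0 at P8 and 3330.2 ± 717 at P21, and the 5 granule neuron markers to between 299 ± 59.7 (P0) and 692 ± 372 (P14). The 5 oligodendrocyte markers summed to between 22.4 ± 11.8 (P0) and 569 ± 241 (P21), and the 7 markers of basket, stellate and Golgi cells to between 63.7 ± 4.09 (P0) and 145 ± 8.25 (P4), with *Slit1* at 0 from P8 on. Microglial and vascular markers stayed below 26 and 121 CPM in every library. The part of these cells in the values below was not tested beyond the repeats named, and fewer PCs and less RNA per PC cannot be told apart.

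The 9 isoforms moved in opposite directions within the family. By edgeR's quasi-likelihood test on postnatal day, 6 of the 9 rose (*Syt2*, *Vamp1*, *Vamp2*, *Cplx1*, *Snap25* and *Syn1*) and 2 fell (*Syt1* and *Cplx2*) at a Benjamini-Hochberg adjusted p below 0.05, while *Syn2* was not called. Of the 14293 genes tested, 12.1% rose and 14.1% fell. With the time point as a factor, all 9 changed in some pattern, against 19.3% of genes tested, although *Syn1* was called in 4 and *Syn2* in 3 of the 15 fits that left out 1 library. *Cplx1* lost this call without P0 replicate 1 or 2 (adjusted p up to 0.0543 from edgeR), and *Syt2* without P21 replicate 3 (0.0526). In 4 isoforms (*Syt2*, *Vamp1*, *Vamp2* and *Snap25*) every P14 and P21 library lay above every P0 and P4 library, a separation found in 8.24% of genes tested. In *Syt1* and *Cplx2* every late library lay below every early one, as in 7.14% of genes tested.

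**Figure D1:**
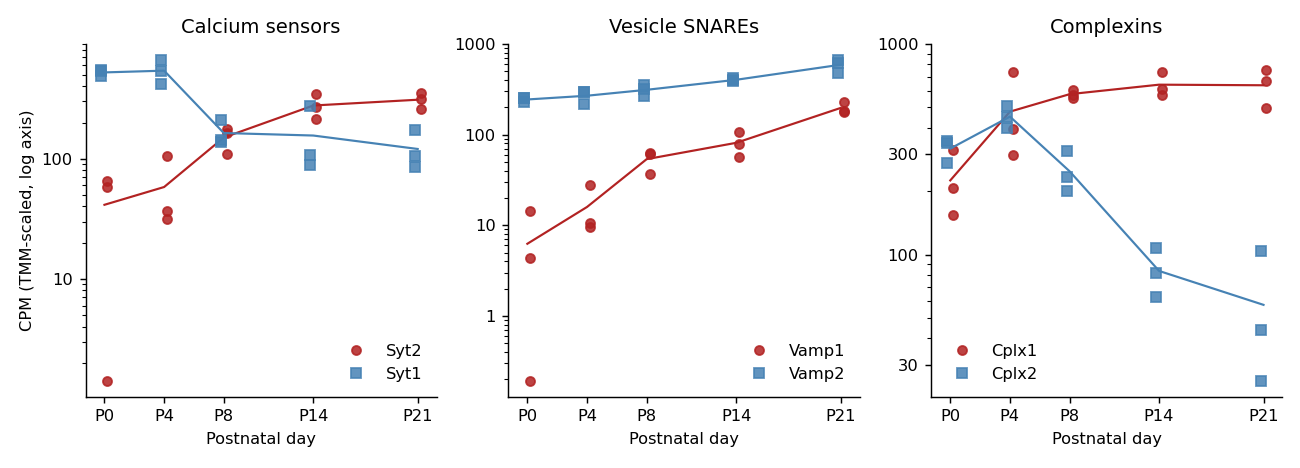
CPM (log axis) of the paralog pairs by postnatal day, with 1 point per library, the isoform named first in each legend as red circles, the other as blue squares, and lines through the means of 3 libraries. Between P0 and P21 the means of *Syt1* and *Cplx2* fall and those of their partners rise. Both complexin means are higher at P4 than at P0, and the *Cplx1* means lie between 578 and 641 CPM from P8 on. *Vamp1* and *Vamp2* both rise and *Vamp2* stays above.

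Synaptotagmin 1 and synaptotagmin 2 are the calcium sensors of fast transmitter release. *Syt1* (ENSMUSG00000035864, chromosome 10, 108497650 to 109010982, minus strand) held 546, 484 and 537 CPM in the 3 P0 libraries and 419.7, 538 and 662 at P4. It then stood at 211, 137 and 143 CPM at P8, 88.5, 272 and 107 at P14, and 84.8, 105 and 172 at P21. All 6 libraries of P0 and P4 lay above all 9 later ones. The mean fell 4.34-fold from P0 to P21, and the log2 slope per day was -0.11 ± 0.020 (± is the standard error for slopes and log2 changes, edgeR adjusted p = 0.000276). The step from P4 to P8 was the largest, with a log2 change of -1.72 ± 0.37 (adjusted p = 0.0293 from edgeR). That call was lost when any P8 library, or P4 replicate 2 or 3, was left out (adjusted p up to 0.147), and the log2 change then lay between -1.96 and -1.56.

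*Syt2* (ENSMUSG00000026452, chromosome 1, 134646677 to 134762593, plus strand) held 64.6, 57.9 and 1.42 CPM at P0 and 31.4, 106 and 36.7 at P4. The lowest of these is 7 reads in P0 replicate 3, a library in which *Syt1* (537 CPM) was like its neighbours. At P8 the libraries held 175, 109.9 and 165 CPM, at P14 346, 215 and 269.7, and at P21 260.0, 313 and 355. The P8 libraries thus lay above all 6 earlier ones, and those of P14 and P21 above all of P8. The mean rose 7.49-fold from P0 to P21, with a slope of 0.15 ± 0.034 log2 units per day (adjusted p = 0.00238 from edgeR). Without P0 replicate 3 the slope was 0.13 (adjusted p = 0.000200) and the mean rose 5.05-fold, against 10.4-fold without P0 replicate 1.

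The paralogs are separate genes that the count files can tell apart. Their principal coding sequences shared 75.3% of aligned bases for *Syt1* and *Syt2*, 76.4% for *Vamp1* and *Vamp2*, 79.6% for *Cplx1* and *Cplx2*, and 70.2% for *Syn1* and *Syn2*, and the longest identical stretch was 32 bases, in the complexins. The predicted proteins are of nearly the same length within the first 3 pairs (421 and 422 residues for synaptotagmin 1 and 2, 118 and 116 for VAMP1 and VAMP2, 134 and 134 for complexin 1 and 2). The 250 bases before a RefSeq transcription start (GRCm38.p6, written 5′ to 3′ on the strand of the gene) are shown for the 2 pairs whose members moved in opposite directions, with every CpG dinucleotide in capitals: *Syt1* at chr10:109010976-109011225 (minus strand), *Syt2* at chr1:134646362-134646611 (plus), *Cplx1* at chr5:108550028-108550277 (minus) and *Cplx2* at chr13:54302306-54302555 (plus).
Syt1: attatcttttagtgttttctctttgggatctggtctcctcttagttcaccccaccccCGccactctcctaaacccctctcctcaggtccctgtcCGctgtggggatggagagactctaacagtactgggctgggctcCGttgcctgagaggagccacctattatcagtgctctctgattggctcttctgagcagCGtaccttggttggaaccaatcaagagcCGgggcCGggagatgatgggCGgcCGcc
Syt2: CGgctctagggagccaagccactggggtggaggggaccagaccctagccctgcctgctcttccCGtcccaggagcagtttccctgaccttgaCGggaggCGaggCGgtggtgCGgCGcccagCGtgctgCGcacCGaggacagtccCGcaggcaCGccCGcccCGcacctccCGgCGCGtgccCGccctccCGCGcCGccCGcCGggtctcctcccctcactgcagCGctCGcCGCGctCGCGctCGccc
Cplx1: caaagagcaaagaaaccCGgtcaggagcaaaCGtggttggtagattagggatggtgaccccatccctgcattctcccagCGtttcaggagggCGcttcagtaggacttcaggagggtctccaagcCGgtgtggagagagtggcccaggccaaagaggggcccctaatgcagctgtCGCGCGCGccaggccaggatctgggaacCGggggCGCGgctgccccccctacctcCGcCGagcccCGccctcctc
Cplx2: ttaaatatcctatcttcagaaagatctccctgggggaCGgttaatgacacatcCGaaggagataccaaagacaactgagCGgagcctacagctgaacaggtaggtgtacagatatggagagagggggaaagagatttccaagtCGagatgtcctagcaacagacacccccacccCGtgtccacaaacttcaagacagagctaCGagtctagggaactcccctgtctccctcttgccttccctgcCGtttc
In both pairs the rising isoform had the window richer in CpG, 30 in *Syt2* against 8 in *Syt1* and 15 in *Cplx1* against 7 in *Cplx2*. The median over 32851 promoters is 6. Second RefSeq starts of *Syt1* and *Syt2* had 5 and 22. The *Cplx2* start used by RefSeq lies well upstream of the gene as GENCODE M21 draws it (chromosome 13, 54371349 to 54383917). *Vamp1* had 9, *Syn1* 27, and *Syn2* 16 and 5 at its 2 starts, and *Vamp2* and *Snap25* had no entry. The first *Syt2* window holds 1 match to TNAAGGTCA (an extended half-site known to bind estrogen-related receptors), as TGACCTTGA 167 bases before the start, a motif found in 1.14% of all promoter windows of this length. The *Syn1* window holds TGACGTCA (the cyclic AMP response element) 159 bases before the start, as do 1.55% of windows. CANNTG (the E-box) was in 66.2% of windows. These included those of *Vamp1*, *Cplx1* and *Cplx2*, each *Syn2* window, and the windows at the second starts of *Syt1* and *Syt2*. Both strands were searched, and these matches describe the sequence only.

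The vesicle SNAREs did not change places. *Vamp1* (ENSMUSG00000030337, chromosome 6, 125215551 to 125245964, plus strand) varied widely at P0, with 0.192, 4.37 and 14.2 CPM, which are 1, 22 and 70 reads. The libraries of P4 held 9.57, 27.6 and 10.6 CPM and those of P8 37.1, 62.95 and 60.9. They reached 108, 56.3 and 79.3 CPM at P14 and 229, 177 and 184 at P21. All 3 P21 libraries lay above all 12 others. The slope, 0.22 ± 0.033 log2 units per day (adjusted p = 5.28e-05 from edgeR), was the steepest of the 9 isoforms. The mean at P21 was 31.5-fold that at P0, or 21.2-fold without P0 replicate 1 and 86.5-fold without P0 replicate 3. Without the P0 time point the slope was 0.19 (adjusted p = 6.02e-05).

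*Vamp2* (ENSMUSG00000020894, chromosome 11, 69088490 to 69092384, plus strand), the main synaptobrevin of the forebrain, held 229, 253 and 252 CPM at P0 and 294, 292 and 220.0 at P4. It rose more evenly, through 351, 320.1 and 267 CPM at P8 and 399, 392 and 418 at P14, to 624, 666 and 483 at P21. The libraries of neighbouring time points overlapped up to P8, and those of P14 and P21 each lay above all earlier ones. The slope was 0.061 ± 0.0076 log2 units per day (adjusted p = 8.03e-06 from edgeR), and the mean rose 2.42-fold from P0 to P21.

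Complexins clamp and then promote fusion of primed vesicles. *Cplx1* (ENSMUSG00000033615, chromosome 5, 108518554 to 108550024, minus strand) held 155, 208 and 312 CPM at P0 and 299, 738 and 395 at P4, so that these time points overlapped and P4 replicate 2 stood far above its group. From P8 on its means lay between 578 and 641 CPM, with 602, 574 and 557 CPM at P8, 738, 573 and 611 at P14, and 664, 494 and 752 at P21. Its slope of 0.057 ± 0.017 log2 units per day passed the test (adjusted p = 0.0202 from edgeR), but this call rests on the early libraries. Without P0 the slope was 0.024 (adjusted p = 0.302), and without P0 replicate 2 alone the adjusted p was 0.0515.

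*Cplx2* (ENSMUSG00000025867, chromosome 13) held 338, 345 and 272 CPM at P0 and 398, 450.1 and 508 at P4, and every P4 library lay above every P0 library. It then fell to 235, 312 and 199 CPM at P8, 81.4, 107 and 62.6 at P14, and 25.04, 43.8 and 104 at P21. No library of P14 or P21 reached the lowest of P8. The slope was -0.15 ± 0.022 log2 units per day (adjusted p = 5.21e-05 from edgeR). The mean fell 5.52-fold from P0 to P21, or 9.25-fold without P21 replicate 3 and 4.30-fold without P21 replicate 1. The largest step, P8 to P14, had a log2 change of -1.57 ± 0.37 (adjusted p = 0.0331 from edgeR). That call was lost when any single library of P8 or P14 was left out (adjusted p up to 0.179, log2 change -1.79 to -1.37).

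**Figure D2:**
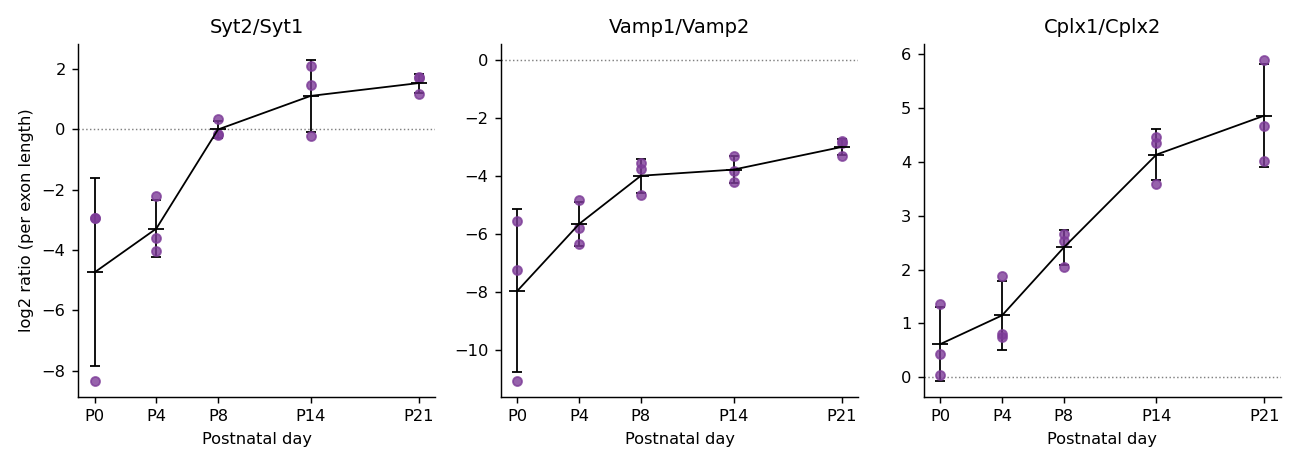
Log2 ratio of each pair, per summed exon length, by postnatal day. Points are libraries, bars are the mean ± SD of 3 libraries, and the dotted line marks equal levels. On this length scale *Syt2*/*Syt1* lies around it at P8, *Vamp1*/*Vamp2* never reaches it and *Cplx1*/*Cplx2* stays above.

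Ratios within a library do not depend on how libraries are scaled to each other. They were taken per kilobase of exon, with 0.5 counts added to each gene. A ratio of 1 thus means equal levels if reads cover the exons evenly, which was not tested. The *Syt2*/*Syt1* ratio had geometric means of 0.0374 (P0), 0.102 (P4), 1.0 (P8), 2.16 (P14) and finally 2.91. The P0 value rests on replicate 3 (0.00309, against 0.129 and 0.131 in the other 2), and without it was 0.130, above that of P4. With the lengths of the longest coding transcripts, the ratio was 0.642 at P8, with all 3 libraries between 0.563 and 0.809, and 1.87 at P21, where the lowest library was at 1.45. All 6 libraries of P0 and P4 were at or below 0.216, those of P8 lay between 0.877 and 1.26, and those of P21 between 2.26 and 3.34. P14 was spread widely, from 0.863 in replicate 2 to 4.26 in replicate 1, and without replicate 2 its mean was 3.43. The log2 ratio had a slope of 0.31 ± 0.060 per day (n = 15 libraries, two-sided permutation p = 9e-05, adjusted p = 0.000135 over the 3 ratios).

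The *Cplx1*/*Cplx2* ratio rose from 1.53 at P0 through 2.22, 5.32 and 17.6 to 29.0 at P21. The log2 ratio climbed by 0.22 ± 0.023 per day (permutation p = 1e-05, the smallest that 100000 permutations can give, adjusted p = 3e-05). The ranges of P0 (1.03 to 2.58) and P4 (1.69 to 3.69) overlapped, and no library of P8 (4.14 to 6.28) overlapped with P4 or P14 (12.1 to 22.0). The 3 libraries of P21 stood apart from each other at 59.3, 25.3 and 16.2, with the highest ratio where *Cplx2* was lowest. *Cplx1* was the higher isoform per length in every library, but by counts alone, where the longer *Cplx2* (4928 bases of exon against 2189) gains, the ratio was 0.681 at P0 and 12.9 at P21.

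The *Vamp1*/*Vamp2* ratio rose from 0.00405 (P0) through 0.0200, 0.0631 and 0.0730 to 0.125 (P21). The P0 value was 0.0119 without replicate 1, which held 1 *Vamp1* read, and 0.00177 without replicate 3. The log2 ratio climbed by 0.21 ± 0.051 per day (permutation p = 0.00022, adjusted p = 0.00022). *Vamp1* never exceeded 0.143 of *Vamp2* per exon length. Because its annotated exons sum to 10167 bases while its longest coding transcript has 3011, the P21 ratio was 0.245 with transcript lengths and 0.334 by counts. On each of these scales *Vamp2* was the higher isoform in every library. Without the P0 time point the slopes were 0.26 for *Syt2*/*Syt1*, 0.14 for *Vamp1*/*Vamp2* and 0.22 for *Cplx1*/*Cplx2*, each with an adjusted permutation p of at most 0.00127.

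*Snap25* (ENSMUSG00000027273, chromosome 2, 136713453 to 136782428, plus strand) encodes the SNARE that sits on the inner face of the plasma membrane. It held 331, 392 and 355 CPM at P0, 986, 995 and 759 at P4 and 1072, 1242 and 1215 at P8. It reached 1450.4, 1943 and 1559 CPM at P14 and 2635, 2406 and 2916 at P21, and no 2 time points overlapped. The slope was 0.12 ± 0.012 log2 units per day (adjusted p = 9.44e-07 from edgeR), the smallest p among the 9 isoforms, and the mean rose 7.38-fold. The step from P0 to P4 alone had a log2 change of 1.35 ± 0.16 (adjusted p = 0.000298 from edgeR), a call that no left-out library removed.

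**Figure D3:**
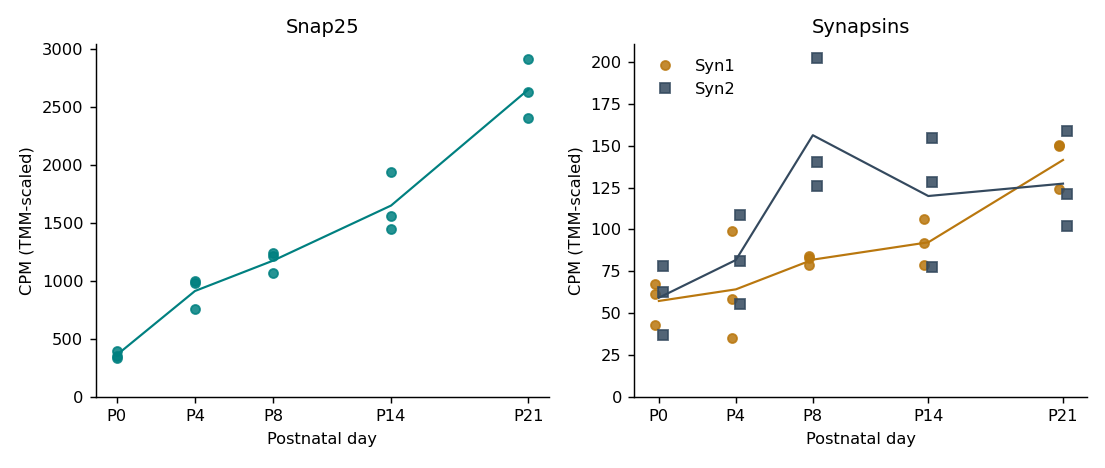
CPM of *Snap25* (left) and of the synapsins (right) by postnatal day, with 1 point per library and lines through the means of 3 libraries, both axes from 0. The *Snap25* mean is higher at each later time point, *Syn1* reaches 141 CPM at P21, and *Syn2* is highest at P8.

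The synapsins moved less than *Snap25*, by 2.47-fold for *Syn1* and 2.15-fold for *Syn2* between the P0 and P21 means. *Syn1* (ENSMUSG00000037217, chromosome X, 20860511 to 20921004, minus strand) held between 35.0 and 98.98 CPM at P0 and P4, 82.9, 83.9 and 79.0 at P8, and 106, 78.9 and 91.8 at P14. The P21 libraries, with 150.2, 149.7 and 124 CPM, stood above all others. The log2 slope of *Syn1* per day was 0.061 ± 0.013 (adjusted p = 0.00124 from edgeR). *Syn2* (ENSMUSG00000009394, chromosome 6, 115134902 to 115282006, plus strand) had P0 libraries of 62.9, 78.0 and 36.7 CPM and P4 libraries of 108, 81.4 and 55.3. It stood at 128, 154 and 77.4 CPM at P14 and at 159, 121 and 102 at P21. Its P8 libraries (202, 126 and 140.3 CPM) were above all of P0 and P4 and overlapped with P14 and P21, and the slope of 0.045 ± 0.019 was not called (adjusted p = 0.0955 from edgeR). Exons of *Syn2* overlap those of *Timp4* on the other strand by 90 bases, and those of *Syn1* overlap *Araf* by 9, and reads in these bases cannot be assigned by strand. *Timp4* held between 212 and 669 CPM per library.

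Between neighbouring time points, few single steps passed, and neighbouring steps share libraries. From P0 to P4, *Snap25* was the 1 isoform called higher (background 1.74%) and 0 were called lower (background 0.231%, also 0 at an unadjusted p below 0.05 and by DESeq2). From P4 to P8, *Syt1* was called lower (background 0.252%) and 0 were called higher by edgeR (background 0.882%), where *Vamp1*, *Snap25* and *Syn2* made 3 at an unadjusted p below 0.05 and DESeq2 called 0. From P8 to P14, *Cplx2* was called lower (background 1.38%) and 0 higher by edgeR (background 1.29%), with 1 isoform, *Snap25*, higher at an unadjusted p below 0.05 and by DESeq2. From P14 to P21, edgeR called 0 higher (background 0.063%) and 0 lower (background 0.266%). In this last step, *Snap25* and *Vamp2* made 2 higher at an unadjusted p below 0.05, DESeq2 called 1 higher (*Snap25*), and neither count was above 0 for lower.

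Levels were ordered per kilobase of summed exon (RPKM, from the TMM-scaled CPM). At P0, *Cplx1* (103 ± 36.6 RPKM, SD, n = 3), *Cplx2* (64.7 ± 8.23), *Vamp2* (64.2 ± 3.49), *Syt1* (62.6 ± 4.05) and *Snap25* (52.9 ± 4.53) came first. The middle 3 of these differed by less than their SDs. *Syn1* (17.4 ± 3.84), *Syn2* (8.42 ± 2.97), *Syt2* (5.41 ± 4.55) and *Vamp1* (0.615 ± 0.707) followed, with *Syn2* and *Syt2* not separated beyond their SDs. At P21, *Snap25* led with 391 ± 37.7 RPKM, ahead of *Cplx1* (291 ± 59.9) and *Vamp2* (155 ± 25.2). *Syn1* (42.9 ± 4.47) and *Syt2* (40.5 ± 6.24) did not differ beyond their SDs, nor did *Vamp1* (19.4 ± 2.77), *Syn2* (18.1 ± 4.07) and *Syt1* (14.4 ± 5.46), nor *Syt1* and *Cplx2* (11.7 ± 8.40) at the end of the order. The order depends on the length used. Per kilobase of the longest coding transcript, *Snap25* led at both ages (170 ± 14.5 at P0 and 1253 ± 121 at P21). On that scale *Cplx1* (103 ± 36.6) stood at P0 beside *Vamp2* (111 ± 6.03) and *Syt1* (108 ± 6.997), within its SD. At P21, *Vamp1* (65.4 ± 9.37) then lay beyond the SDs above *Syt2* (45.0 ± 6.93) and *Syn1* (43.4 ± 4.53). It also lay above *Syn2* (33.0 ± 7.43) and *Syt1* (25.0 ± 9.44).

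The pairs also differed in their summed level. *Syt1* and *Syt2* together made 68.0 ± 5.17 RPKM at P0, 39.2 ± 8.72 at P8 and 55.0 ± 11.5 at P21. Of their counts, *Syt2* made 7.18% at P0 (0.264% to 10.7% by library) and 72.6% at P21 (67.4% to 75.4%). *Cplx1* and *Cplx2* together made 167 ± 29.3 RPKM at P0 and then between 303 and 314 at each later time point. *Vamp1* and *Vamp2* together rose from 64.8 ± 4.02 to 175 ± 25.8 RPKM. These sums were not tested.

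**Figure D4:**
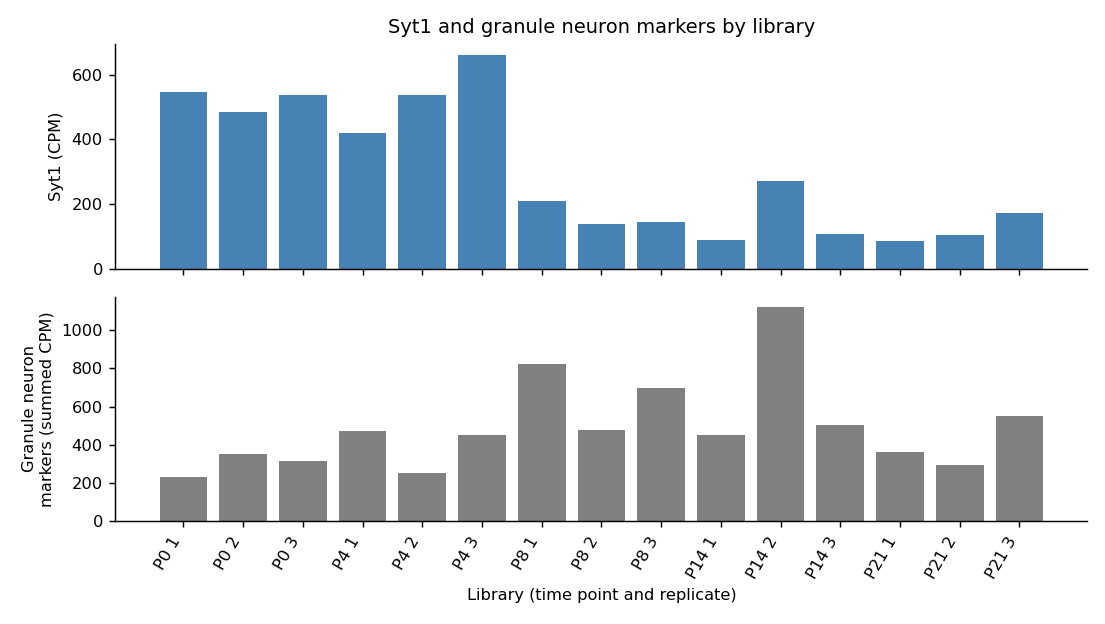
*Syt1* (upper bars) and the sum of 5 granule neuron markers (lower bars) in CPM in each of the 15 libraries, axes from 0. From P8 on, the library with the most *Syt1* in each time point is also the one with the highest marker sum. The same libraries had the lowest PC marker sums of their ages (not drawn).

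From P8 on, *Syt1* differed between libraries of the same age together with granule neuron markers (*Gabra6*, *Cbln1*, *Neurod1*, *Slc17a7* and *Etv1*, all with counts at every time point), but not with these alone. In P14 replicate 2, *Syt1* stood at 272 CPM and the marker sum at 1120.3, against 88.5 and 107 for *Syt1* and 452 and 504 for the sum in the other 2 libraries of that age. *Cplx2* was also highest in P14 replicate 2 (107 CPM). P8 replicate 1 (*Syt1* 211 CPM, marker sum 823) and P21 replicate 3 (172 and 549) were likewise highest in both. The same libraries had the lowest PC marker sums of their ages (P8 replicate 1 17801 CPM, P14 replicate 2 30749, P21 replicate 3 36886). P21 replicate 3 had the most *Cplx2* of its age (104 CPM), but P8 replicate 1 did not (235 CPM). At P8, *Cplx2* was highest in replicate 2 (312 CPM), which had the lowest granule marker sum of that age (476). P14 replicate 2 also led its age in interneuron, oligodendrocyte and microglial markers, and P21 replicate 3 in Bergmann glia and oligodendrocyte markers. P8 replicate 1 led in none of these. Which cells account for the differences was not tested. At P0 and P4 the library with the most *Syt1* was not the one with the highest sum. The P4 sums were close, at 452 CPM in replicate 3, which had the most *Syt1*, and 473 in replicate 1. Of the 5 markers, 3 were called rising with postnatal day. Sums of different ages are therefore not a like measure of granule neurons, and their part in *Syt1* was not tested. A repeat chosen after seeing the data left out P8 replicate 1, P14 replicate 2 and P21 replicate 3. It also called 6 isoforms rising and 2 falling, with *Syn2* called (adjusted p = 0.0495 from edgeR) in place of *Cplx1* (0.0611). Since these libraries also held the most *Syt1* of their ages, leaving them out steepens its fall by construction. P14 replicate 2 and P21 replicate 3 held the most *Cplx2* of their ages, and its slope went from -0.15 to -0.18. The *Syt1* and *Cplx2* slopes, the falling count and the *Syt2*/*Syt1* and *Cplx1*/*Cplx2* ratio slopes in this repeat are therefore no separate evidence. With the time point as a factor, 5 of the 9 isoforms were called in this repeat, on 12 libraries.

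**Figure D5:**
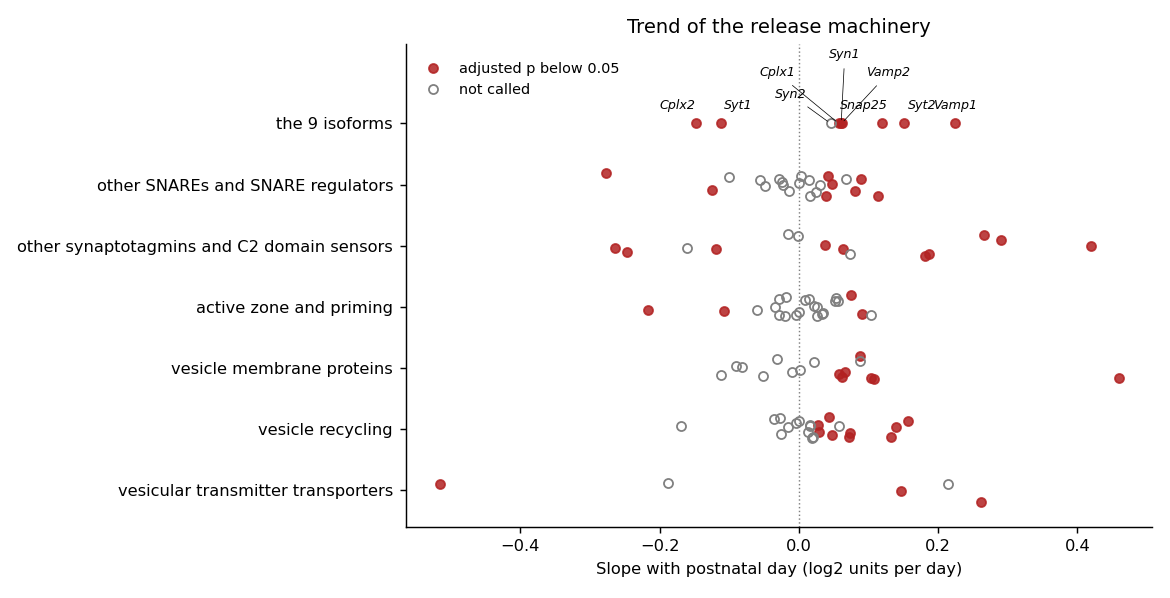
Slope with postnatal day (log2 units per day) of the 9 isoforms and of the 102 other genes of the release machinery that were tested, 1 point per gene, filled where the adjusted p from edgeR is below 0.05. Rising calls outnumber falling ones, 33 to 8.

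The wider machinery held further genes that rose and a few that fell. Of 107 other genes in 6 lists, 102 were tested, of which 33 rose, 8 fell and 61 did not pass, beside the 12.1% rising and 14.1% falling of all genes tested. The median slope over the 102 was 0.019 log2 units per day, against -0.0077 over all genes tested. Of the vesicle membrane proteins 7 of 16 rose, and of the recycling genes 9 of 22. *Syp*, the abundant vesicle protein synaptophysin, rose from 98.6 to 539 CPM between P0 and P21 (slope 0.11 ± 0.011, adjusted p = 6.26e-07 from edgeR), *Dnm1*, the neuronal dynamin, from 46.5 to 305, and *Sh3gl2*, endophilin A1, from 68.6 to 698. *Syngr1* (73.0 to 319.9 CPM) and *Pacsin1* (23.3 to 162) rose as well. *Sv2c*, 1 of the SV2 vesicle glycoproteins, had no reads in the 3 P0 libraries, at most 2.95 CPM in any library up to P14, and 68.1, 73.7 and 61.5 CPM at P21.

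Other members of these families moved in both directions. Among the other SNAREs and their regulators, 6 of 22 tested rose and 2 fell, the falling share being smaller than the 14.1% of all genes. *Stx1a* fell from 185, 135 and 159 CPM at P0 to 6.01, 0.212 and 1.76 at P21, with a slope of -0.28 ± 0.028 (edgeR adjusted p = 9.58e-07). *Nsf*, the ATPase that takes spent SNARE complexes apart, rose from 139.8 to 412 CPM, *Stxbp2* from 2.19 to 20.3, and *Stxbp5*, tomosyn, fell from 30.7 to 4.75. In the active zone and priming list (2 of 23 rising and 2 falling, both smaller shares than the 12.1% and 14.1% of all genes), *Rab3a*, the main vesicle GTPase, rose from 383 to 1077 CPM and *Rab3b* fell from 56.3 to 4.76 (edgeR adjusted p = 8.21e-05). *Rims4* rose from 34.7 to 117 CPM and *Rims3* fell from 57.0 to 13.9.

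The other synaptotagmins and C2 domain sensors had 7 rising and 3 falling among 14 tested, beside 12.1% and 14.1% of all genes. *Doc2b*, a high-affinity calcium sensor tied to spontaneous release, held 4.62, 0.595 and 2.63 CPM at P0 and 198, 233 and 225 at P21, with a slope of 0.29 ± 0.039 (edgeR adjusted p = 1.66e-05). *Rph3a*, rabphilin, rose from 7.46 to 87.1 CPM, and *Syt12* from no reads in the 3 P0 libraries to between 23.5 and 41.3 CPM at P21. *Syt5* fell from 108 to 3.26 CPM, *Syt16* from 54.3 to 1.62 and *Syt13* from 55.6 to 9.08. Among the 5 transmitter transporters (2 rising, 1 falling), *Slc32a1*, which loads GABA into vesicles, rose from 10.6 ± 3.59 to 103 ± 31.1 CPM (slope 0.15 ± 0.017, adjusted p = 3.39e-06 from edgeR).

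The other transporters load other transmitters. *Slc17a8* (a vesicular glutamate transporter) held 37.3, 30.8 and 53.7 CPM at P0, had no reads at P14 and at most 1 read per library at P21 (falling, adjusted p = 3.38e-05 from edgeR). *Slc17a7* (the glutamate transporter of granule neurons, and 1 of their markers above) rose from a mean of 1.19 to 29.4 CPM (adjusted p = 0.00509). *Slc17a6* (slope -0.19, adjusted p = 0.0719) and the plasma membrane glycine transporter *Slc6a5* (slope 0.21, adjusted p = 0.0674) were not called.

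Genes with the profiles most like each paralog, by Pearson correlation of log2(CPM + 1) over the 15 libraries among the protein-coding genes tested, are given as a description, since all share the same ages and libraries. Closest to *Syt1* were *Amn* (r = 0.936), *Nrg1* (0.935), a neuregulin, and *Armcx6* (0.929). *Nrg1* had 60.3 CPM at P0 and 6.01 at P21. *Syt2* was followed by *Lpcat4* (0.968), *Fndc5* (0.959), the precursor of irisin, and *Pdk3* (0.958). *Cplx2* was followed by *Cacng4* (0.972), an AMPA receptor auxiliary subunit, *Mgll* (0.956), the lipase that breaks down the endocannabinoid 2-AG, and *Rps16* (0.956). *Cacng4* fell from 246 CPM at P0 to 19.0 at P21. For *Cplx1* the closest were *Nrip3* (0.941), *Fam162a* (0.933) and *Zfp516* (0.930). *Zfp516* (0.975) also stood with *Mfhas1* (0.977) and *Ube2ql1* (0.974) nearest to *Vamp1*, and *Vamp2* was followed by *Sec62* (0.956), *Sel1l* (0.955) and *Ogfrl1* (0.954).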

How the data were processed

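RNA from laser-captured PCs was amplified with the SMARTer Ultra Low kit, which does not mark strand. The authors trimmed the reads (cutadapt 1.2.1), aligned them to GRCm38 with GSNAP, kept uniquely mapping reads and counted them per gene with HTSeq 0.5.3p9 in intersection-strict mode, where a read must lie wholly within a feature. What they deposited are raw counts for 38561 Ensembl genes, not normalized. The annotation release is not given in the sources used here, and reads outside features (16.7% to 29.8% of each table) and ambiguous reads (1.16% to 1.57%) stayed out of library sizes. Names, positions and exon lengths came from GENCODE M21, which matched 36723 genes.

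From these counts, edgeR 4.0.16 (R 4.3.3) fitted postnatal day as a number to all 15 libraries after TMM scaling and filterByExpr by time point (14293 genes), with Benjamini-Hochberg adjustment at 0.05, and a second fit took the time point as a factor. Errors of slopes came from the slope and its F statistic. CPM used TMM effective library sizes. RPKM here is that CPM per kilobase of summed exon. Ratio slopes on day were tested with 100000 permutations of libraries. Tests were checked on simulated counts over 13824 genes. The trend test found 127 of 200 changed genes (63.5%) with 5 false calls, and the factor fit 90 with 0. The changed genes were drawn above a floor on CPM and all given the same size of slope. That slope was steeper than those of *Vamp2*, *Cplx1*, *Syn1* and *Syn2*, so these shares do not apply to them. A gene with no read lies below 3 counts (0.384 to 0.880 CPM), which covers counting error only. The study calls its replicates biological, and the labels do not tie libraries to animals, so p-values measure the spread between these libraries. No 2 replicates were alike within sampling noise (chi-square per gene 19.3 to 59.4). Promoter windows and starts are from RefSeq (GRCm38.p6).

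The 9 isoforms, the machinery lists, the markers and the tests were chosen with earlier results of these data known. The genes named are the 9 isoforms, from each machinery list up to 3 genes with the largest slope each way among those called and whose highest mean reached 10 CPM, all 5 transmitter transporters listed (*Slc6a5* acts at the plasma membrane), and for each of 6 paralogs the 3 protein-coding genes with the closest profile. 1 listed gene name had no match. Of the genes the rule names, 1 is not reported here. Alternatives covered DESeq2 1.42.0 size factors and tests, total counts, limma 3.58.1 (voom), no filter on low counts, log2(day + 1), the replicate block, leaving out P0 or each library in turn, leaving out 3 libraries chosen after seeing the data, and exon, transcript or no length for ratios. Python 3.11.15, numpy 2.4.6, scipy 1.17.1, pandas 2.3.3 and matplotlib 3.10.9 were used.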

Additional observations from a re-analysis of the deposited data

How the results depend on the processing

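Across the alternatives, the counts of 6 rising and 2 falling isoforms stayed within 5 to 7 and at 2. The 3 ratio slopes kept their direction and call in every alternative run. In the run without 3 libraries chosen after seeing the data, the falling count and the *Syt2*/*Syt1* and *Cplx1*/*Cplx2* slopes are no separate evidence. With each library left out in turn, the ratio slopes lay between 0.25 and 0.33 for *Syt2*/*Syt1*, 0.16 and 0.23 for *Vamp1*/*Vamp2*, and 0.20 and 0.24 for *Cplx1*/*Cplx2*. The rising count lay between 5 and 7, the other machinery between 28 and 33 rising and 8 and 10 falling, and the isoforms called with the time point as a factor between 6 and 8. The isoforms called lay between 1 and 2 from P0 to P4, 0 and 1 from P4 to P8, 0 and 1 from P8 to P14, and at 0 from P14 to P21. Total counts in place of TMM moved the median slope of all genes by -0.36 log2 units over 21 days (limma-voom by 0.24 and no filter by -0.13), turned no isoform's direction, gave 14 falling machinery genes and lost *Cplx1* (slope 0.041, adjusted p = 0.0818 from edgeR). *Cplx1* was also lost without P0, without P0 replicate 2 and without the library highest in granule neuron markers at each of P8, P14 and P21, and *Syn2* was called without P8 replicate 1 (0.0397), without those 3 libraries and with log2(day + 1) (0.0183). DESeq2 called 2 isoforms from P0 to P4 (*Cplx1* added), 2 from P8 to P14 and 1 from P14 to P21, and no filter gave 2 from P0 to P4. Without the 3 libraries, 5 isoforms changed with the time point as a factor in place of 9, on fewer samples. Libraries that share a replicate number did not deviate together (mean r = -0.0036 over 30 pairs, against 0.0018 over 60 others). With the replicate block, 0 isoforms were called from P4 to P8 (*Syt1* adjusted p = 0.0587 from edgeR), the *Syt2*/*Syt1* slope was 0.31 ± 0.061 (adjusted permutation p = 0.00035), and no other count of isoforms changed. The cause of these shifts was not tested. At P0, 1 library each held 1 *Vamp1* and 7 *Syt2* reads at a depth like that of the other 2 (4408128 to 4687163 counts). Depth limits values near 3 counts, 0.384 to 0.880 CPM.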
